A study of Macaca mulatta with 27 samples.

Results

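The comparison described here set rhesus embryonic stem cells (ESCs) reprogrammed with the NHSM-v protocol against the same kind of cells reprogrammed with the LCDM (EPS) protocol. Its members are the 3 libraries labelled NHSM-v and the 3 labelled LCDM (EPS), chosen by their labels alone, so 6 of the 27 libraries of the series, and all genes were examined. RNA of each culture was made into directional mRNA libraries, single reads were sequenced, and the reads counted on each of 17967 gene symbols were deposited. The other libraries came from primed cells (6 libraries) and from cells reprogrammed with E-NHSM, 4i/L/b, TL2i, t2iLGöY and TL-CDK8i (3 each), and they are used only as reference. Both groups carry the label "Naive cells". The labels do not say that the 3 samples of a group came from separate cultures, so the p-values measure the spread between these samples, which may be technical.

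Primed pluripotent stem cells correspond to the epiblast near gastrulation, whereas the naive state is that of the earlier epiblast, and reprogramming media aim to move cells from the former to the latter with cytokines and inhibitors of kinase pathways. LCDM is named for its components, namely the cytokine LIF, the GSK3 inhibitor CHIR99021, dimethindene maleate and minocycline, and it was devised for extended pluripotent stem (EPS) cells. NHSM-v is a variant of the naive human stem cell medium, a family of LIF-based media with several kinase inhibitors, and its exact composition is not given in the sources used here. GSK3 inhibitors act on the Wnt pathway, MEK inhibitors act on the pathway downstream of FGF receptors, and LIF acts through STAT3, so the genes that answer to these pathways are treated as groups below.

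According to the study's methods, every group was derived from LyonES-tGFP-(S3), a clonal rhesus ESC line. It carries a tauGFP gene driven by the ubiquitous CAG promoter and a lentiviral STAT3-ERT2 gene, a fusion of STAT3 with a modified ligand-binding domain of the oestrogen receptor that is activated by tamoxifen. Cells of NHSM-v and LCDM (EPS) were grown without tamoxifen.

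NHSM-v libraries held 9504626 to 12201171 counts and LCDM (EPS) libraries 16799803 to 20046414, so low transcripts were measured more finely in the latter. The 10 most counted genes took 5.20% to 5.24% of an NHSM-v library and 2.96% to 3.05% of an LCDM (EPS) library. Within groups, the correlation of log2 levels across 14752 genes lay between 0.983 and 0.991, and between the groups it lay between 0.894 and 0.902. Genes are not independent replicates, and these values describe the libraries. Replicates of a group were not repeats of a single library, since their counts gave a chi-square per gene from 6.75 to 12.3 and sampling noise would give a value near 1, so no library was counted as a repeat of another. Levels are given as CPM, a count relative to the total of its library, with TMM scaling factors set over the 27 libraries. A floor of 3 counts per library corresponds to 0.264 to 0.338 CPM in NHSM-v and to 0.141 to 0.171 CPM in LCDM (EPS). Floors and intervals cover counting error only.

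The label of ESCs was checked against genes that define pluripotent cells, and most of these were near 0 in both groups. POU5F1, which encodes the pluripotency factor OCT4, was counted at 0.226, 0.206 and 0.440 CPM in NHSM-v and at 5.97, 2.36 and 1.14 CPM in LCDM (EPS), whereas primed libraries held 1104 to 1295 CPM. NANOG, another factor of the pluripotency network, had no count in NHSM-v and 2 counts in all of LCDM (EPS), and primed libraries held 107 to 157 CPM. E-NHSM and TL-CDK8i libraries kept POU5F1 at mean levels of 1365 and 502 CPM. SOX2, shared by pluripotent and neural progenitor cells, was present in both groups, at 97.9 to 106 CPM in NHSM-v and 323 to 338 CPM in LCDM (EPS). For this reason the groups are called below by their protocol, and no pluripotent state is attributed to them.

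ESR1, the oestrogen receptor gene, had the largest log2 fold change of all genes higher in NHSM-v. NHSM-v libraries held 1278, 1175 and 1280 CPM of ESR1, and LCDM (EPS) libraries 0.285, 0 and 0.379 CPM. All NHSM-v libraries were thus far above all LCDM (EPS) libraries, with a log2 fold change of 12.55 ± 0.15 (SE; adjusted p = 2.38e-29, edgeR's quasi-likelihood test with Benjamini-Hochberg adjustment). STAT3 was counted at 559, 588 and 599 CPM in NHSM-v and at 154, 161 and 149 CPM in LCDM (EPS), a log2 fold change of 1.99 ± 0.06 (SE; adjusted p = 2.55e-20, same test). Both genes contribute sequence to the STAT3-ERT2 transgene, and counts per gene cannot separate its reads from those of the resident genes. Across the series ESR1 was high in the 3 primed libraries whose columns carry the letter K (355 to 399 CPM), in 4i/L/b (mean 757 CPM), t2iLGöY (376 CPM) and TL2i (228 CPM). It was at 0 to 0.863 CPM in the 3 primed libraries of letter J, at a mean of 0.204 CPM in E-NHSM, and between 0.111 and 35 CPM in TL-CDK8i. ESR1 reads and the choice of protocol cannot be told apart in the comparison of NHSM-v with LCDM (EPS), and this holds for every result below. The methods state that all groups came from a line that carries STAT3-ERT2, yet LCDM (EPS) libraries held almost no ESR1 reads. Read counts do not show whether cells carry a gene, and whether both groups started from the same cells was not tested.

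Genes of the Y chromosome differed as well, which was noticed after their values were seen. DDX3Y was counted at 17.1, 17.3 and 18 CPM in NHSM-v and at 0.854, 1.93 and 2.00 CPM in LCDM (EPS), with no overlap (log2 fold change 3.51 ± 0.34 SE, adjusted p = 1.35e-09, edgeR's quasi-likelihood test). Its mean level was 11.7 and 7.98 CPM in the primed libraries of letters J and K, 16.0 CPM in 4i/L/b, 11.8 CPM in t2iLGöY and 22.6 CPM in TL-CDK8i, and it was as low as in LCDM (EPS) in E-NHSM (1.05 CPM) and TL2i (2.36 CPM). USP9Y was at 2.82, 7.41 and 1.23 CPM in NHSM-v, and LCDM (EPS) libraries had no count, so it was at least 22.4-fold higher in NHSM-v (against a floor of 3 counts per library). By immunostaining of H2AK119Ub, the study reported signs of an inactive X chromosome in primed and NHSM-v cells. In LCDM (EPS) cells the stain was diffuse, for which it proposed X reactivation. Whether reads counted on DDX3Y and USP9Y came from a Y chromosome was not tested. The part of ESR1 reads and of reads counted on Y-linked genes in the other differences was not tested either.

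**Figure D1:**
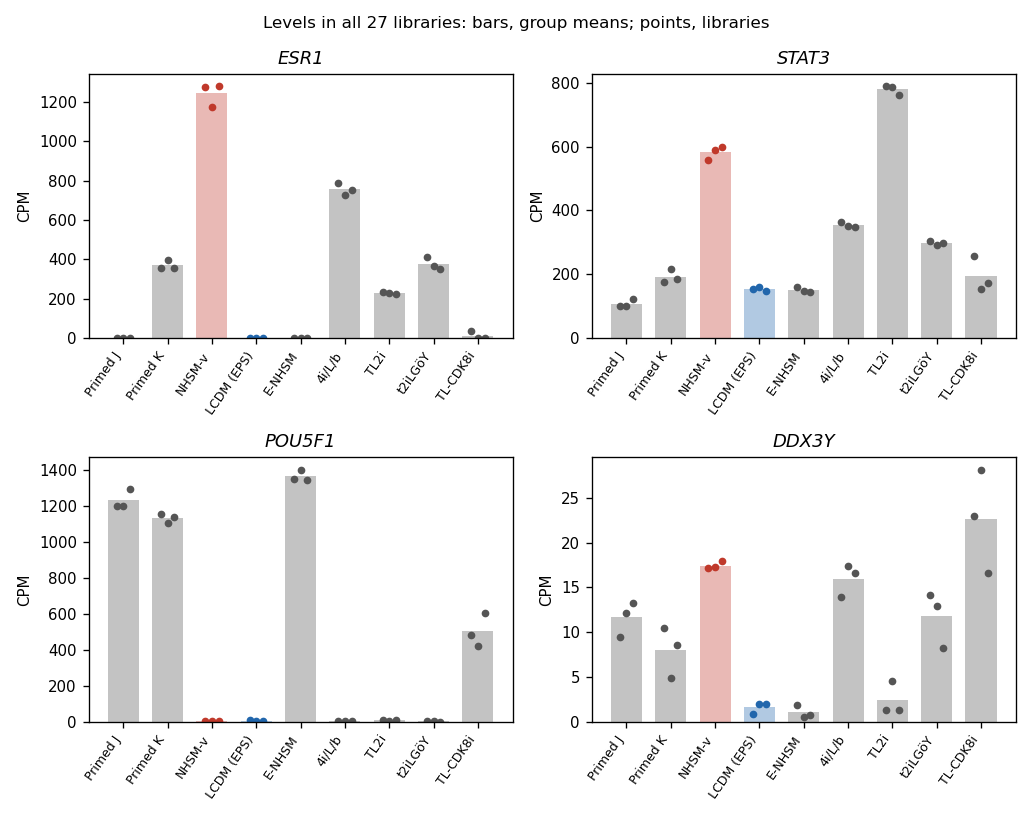
CPM of ESR1, STAT3, POU5F1 and DDX3Y in all 27 libraries (points) with group means (bars), the primed libraries split by the letter of their column. ESR1 stands between 1175 and 1280 CPM in the 3 NHSM-v libraries and at or below 0.379 CPM in the 3 LCDM (EPS) libraries, and POU5F1 is near 0 in both groups.

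To find out how far the end points of the 2 protocols differ, the 13187 genes with enough counts were tested between the 3 and 3 libraries, and 7766 of them (58.9%) passed an adjusted p of 0.05. Of these, 3864 (29.3% of the genes tested) were higher in NHSM-v and 3902 (29.6%) were lower. A change of at least 2-fold was seen for 3422 genes (25.9%), 1936 of them higher and 1486 lower in NHSM-v. The median log2 fold change of all genes tested was -0.029. Because most genes tested were called, counts of called members are to be read against these percentages, and a list is described by its direction and median. Genes named below were mostly chosen for being called between these 6 libraries, so a lack of overlap is no separate support.

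Most mesenchymal, collagen and integrin genes were higher in NHSM-v, and most neural progenitor and neuron genes were higher in LCDM (EPS). The 6 lists with the highest medians among those with at least 20 genes tested were those of mesenchymal genes, collagens, MEK-ERK feedback genes, integrins with laminins, Hippo-YAP targets and Wnt targets. The lists with the lowest medians, by the same criterion, were those of neurons, neural progenitors, and axial and dorsoventral patterning of the neural tube. The lists were chosen with earlier results of these data known, so their directions are a description and no separate test. In bulk RNA, fewer cells of a type and less RNA per cell cannot be told apart.

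**Figure D2:**
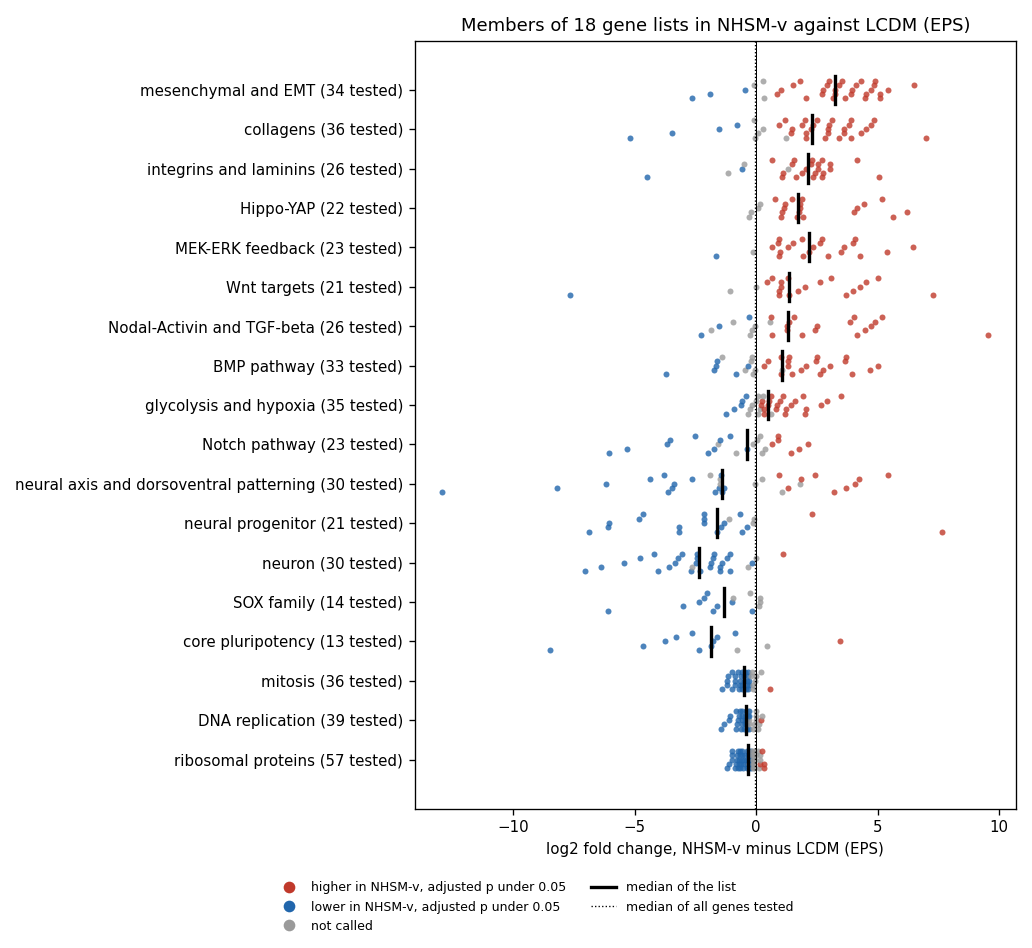
log2 fold change of NHSM-v minus LCDM (EPS) for the members of 18 gene lists, 1 point per gene tested, coloured by call, with the median of each list (thick bar) and of all genes tested (dotted line). Mesenchymal genes have a median of 3.25 and neuron genes a median of -2.37, while genes of mitosis, DNA replication and ribosomal proteins cluster within about 1.5 of 0.

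The mesenchymal list, which holds genes of fibroblast-like and smooth muscle-like cells and of epithelial-mesenchymal transition, had 28 of 34 tested members higher and 3 lower in NHSM-v, with a median log2 fold change of 3.25. Its summed level was 37602 to 37792 CPM in NHSM-v, 5605 to 6461 CPM in LCDM (EPS), and 6716 CPM on average in primed cells. ACTA2, the actin of smooth muscle, was counted at 1398, 1369 and 1454 CPM in NHSM-v and at 18.2, 17.6 and 13.2 CPM in LCDM (EPS), a log2 fold change of 6.50 ± 0.09 (SE; adjusted p = 1.42e-28, edgeR's quasi-likelihood test). TAGLN, which encodes the actin-binding protein transgelin, was at 2969, 2671 and 2876 CPM against 70.4, 71.4 and 64.3 CPM. For both contractile genes every NHSM-v library was far above every LCDM (EPS) library. THY1, a surface glycoprotein of fibroblasts and of several stem cells, was at 226, 228 and 227 CPM against 7.06, 6.08 and 7.80 CPM.

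The transcription factors of epithelial-mesenchymal transition did not move as a block. SNAI2 was at 73.9, 66.9 and 77.8 CPM in NHSM-v and 2.62, 4.01 and 0.920 CPM in LCDM (EPS), and PRRX1 at 153, 180 and 178 CPM against 8.42, 8.11 and 6.12 CPM, each without overlap (log2 fold changes 4.91 and 4.57, adjusted p = 2.73e-15 and 2.10e-21, edgeR's quasi-likelihood test). SNAI1 and ZEB1 were lower in NHSM-v (log2 fold changes -2.66 and -0.46), and TWIST1 was not called, at 10.4 ± 1.53 against 8.95 ± 3.68 CPM (SD, n = 3). Among genes of differentiated fibroblasts, DCN, which encodes decorin, was lower in NHSM-v (1.80 ± 0.402 against 7.12 ± 2.73 CPM) and LUM, which encodes lumican, was higher (9.34 ± 1.26 against 3.40 ± 1.31 CPM). Both stood at 0 in the 6 primed libraries. PDGFRA, a receptor of mesenchymal precursors, was at 6.26 ± 2.95 and 5.28 ± 0.416 CPM and was not called.

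Cadherins, which join cells to each other, were divided, with 12 higher and 9 lower of 25. CDH2, the N-cadherin of neural and mesenchymal cells, was abundant in both groups (1497 ± 37.5 and 776 ± 20.5 CPM). CDH6 was at 1221, 1190 and 1175 CPM in NHSM-v and at 28.4, 24.5 and 27 CPM in LCDM (EPS), and CDH11 at 675, 693 and 660 CPM against 87.7, 70.0 and 78.2 CPM. CDH12 went the other way, with 2 counts in NHSM-v and 12.7 to 21.5 CPM in LCDM (EPS), a ratio of 236 in favour of LCDM (EPS) with a 95% interval of 65.0 to 1950 from counting error. CDH1, the E-cadherin of epithelia and of pluripotent cells, was at most 0.0880 CPM in NHSM-v and at most 1.32 CPM in LCDM (EPS), while primed libraries held 30.6 to 108 CPM.

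Collagens and adhesion receptors were mostly higher in NHSM-v, as the mesenchymal genes were. The mesenchymal list itself holds COL1A1, COL6A3 and other collagen genes, so it and the collagen list are not independent. Of the 36 collagen genes tested, 27 were higher and 4 lower in NHSM-v (median log2 fold change 2.30), and their summed level was 23412 to 23876 CPM against 2813 to 3271 CPM. COL1A1, the main chain of fibrillar collagen, was at 6152, 6706 and 6238 CPM in NHSM-v and at 619, 701 and 567 CPM in LCDM (EPS), a log2 fold change of 3.42 ± 0.06 (SE; adjusted p = 2.33e-26, edgeR's quasi-likelihood test). COL4A1, a collagen of basement membranes, was at 2775, 2567 and 2593 CPM against 211, 204 and 179 CPM. COL6A3 (log2 fold change 4.85) and COL8A1 (6.99) moved further still, whereas the cartilage collagens were divided, with COL2A1 higher (1.20) and COL9A2 lower (-0.80).

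Matrix glycoproteins were among the most abundant of these transcripts. FN1, which encodes fibronectin, was counted at 8624, 8606 and 8481 CPM in NHSM-v and at 480, 655 and 428 CPM in LCDM (EPS), and TNC, which encodes tenascin-C, at 2237, 2270 and 2196 CPM against 31.0, 44.1 and 33.3 CPM. No LCDM (EPS) library came near the lowest NHSM-v library for either gene. Of the integrins and laminins, the receptors and basement membrane proteins through which cells hold the matrix, 21 of 26 were higher and 2 lower (median 2.16). ITGA5, the fibronectin receptor chain, was at 301, 284 and 294 CPM against 38.4, 40.6 and 32.1 CPM, and its partner ITGB1 was at 2079 ± 115 against 438 ± 30.2 CPM. LAMB1 was higher in NHSM-v (log2 fold change 4.15), and LAMC3 was at 2.37, 3.29 and 2.11 CPM in NHSM-v against 55.5, 66.4 and 60.8 CPM in LCDM (EPS).

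**Figure D3:**
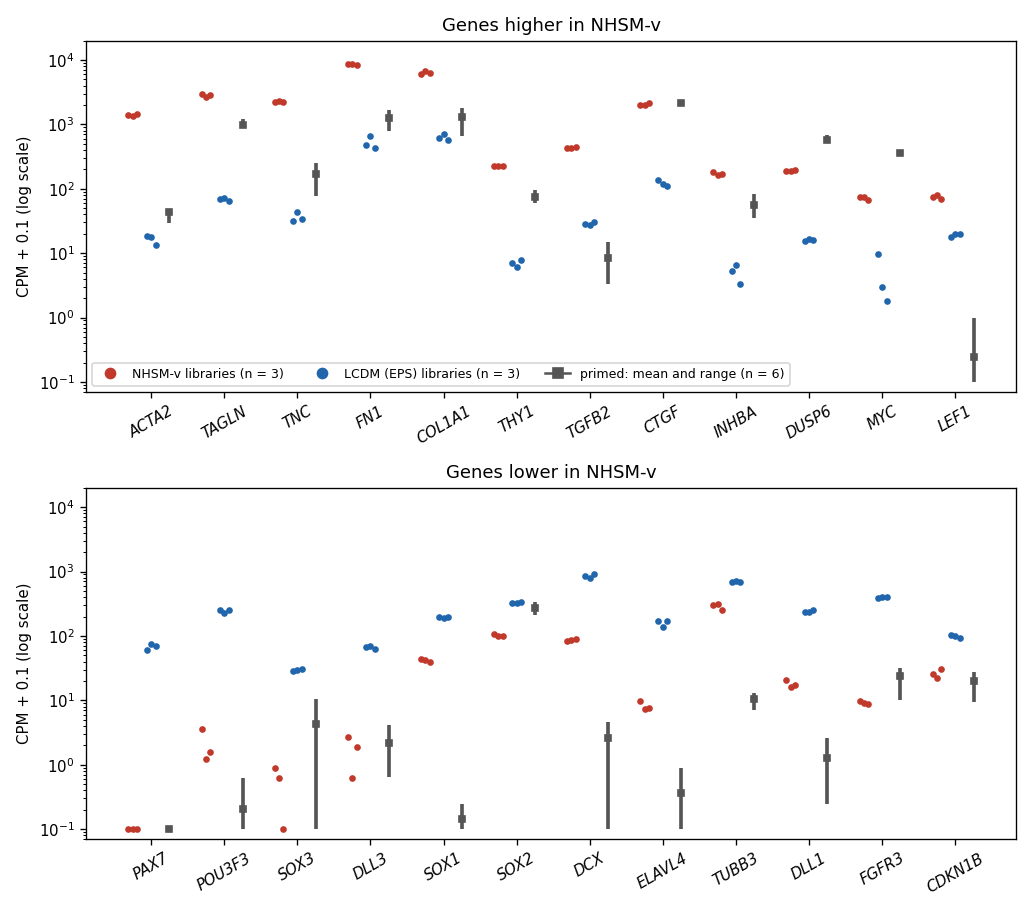
CPM plus 0.1 on a log axis for 12 genes higher in NHSM-v (upper panel) and 12 lower (lower panel), 1 point per library, with the mean and range of the 6 primed libraries as squares with bars. The 3 NHSM-v points and the 3 LCDM (EPS) points do not overlap for any of the 24 genes. These genes were chosen from those called between the same libraries, so the gap is no separate support.

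Genes of the TGF-beta pathway, whose ligands drive matrix production in many cell types, were mostly higher in NHSM-v (17 higher and 3 lower of 26, median log2 fold change 1.33). Among the ligands, INHBA, the subunit of activin A, was counted at 184, 163 and 172 CPM in NHSM-v and at 5.12, 6.46 and 3.25 CPM in LCDM (EPS). TGFB2 was at 433, 432 and 450 CPM against 28.1, 26.9 and 30.3 CPM, and TGFB3 at 192 ± 5.25 against 6.91 ± 1.48 CPM. For each of these ligands the groups did not overlap.

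The receptors of the pathway were divided. TGFBR2 was at 110, 93.8 and 108 CPM in NHSM-v and at 4.38, 4.43 and 5.68 CPM in LCDM (EPS), with a log2 fold change of 4.5 ± 0.15 (SE; adjusted p = 1.32e-19, edgeR's quasi-likelihood test). TGFBR1 and the activin receptor ACVR2B were lower in NHSM-v (log2 fold changes -0.31 and -1.51). Of the responding genes, SMAD7, the inhibitory SMAD that the pathway induces, was at 67.8 ± 5.89 against 27.6 ± 2.35 CPM. NODAL, the ligand of the early embryo, stayed low in both groups, at 3.04, 0 and 0 CPM and at 5.58, 3.77 and 2.00 CPM, and it was not called.

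Hippo-YAP genes, which include targets of the mechanically regulated coactivators YAP1 and WWTR1, gave 18 higher and 0 lower members of 22 (median 1.72). None was lower at an unadjusted p under 0.05 in edgeR or as called by DESeq2 (0 in each), and the other alternatives gave 0 or 1 lower member. YAP1 itself was at 274 ± 10.8 and 273 ± 4.5 CPM (SD, n = 3), and was not called. CTGF, a secreted matricellular protein and a standard YAP target, was at 1991, 2018 and 2164 CPM in NHSM-v and at 135, 117 and 111 CPM in LCDM (EPS). CYR61, its relative, was at 732, 812 and 804 CPM against 27.4, 25.1 and 16.2 CPM, and ANKRD1 was at 33.7, 24.9 and 16.7 CPM against 0, 0.660 and 0.325 CPM. In primed cells CTGF was at 1939 to 2363 CPM and did not differ from NHSM-v beyond the threshold, and CYR61 was higher than in NHSM-v, at 857 to 1602 CPM.

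The BMP pathway gave 20 higher and 6 lower of 33 members (median 1.08). The ligands BMP6 (114 ± 11.3 against 7.92 ± 1.47 CPM), GDF6 (20.3 ± 1.90 against 0.628 ± 0.811 CPM) and BMP4 (5.30, 13.6 and 9.24 CPM against 0.114, 0.141 and 0.866 CPM) were higher in NHSM-v. The ID genes, which encode inhibitors of basic helix-loop-helix factors and are direct BMP targets, were lower or not called. ID4 was at 3.27, 3.81 and 4.31 CPM in NHSM-v and at 52.7, 55.9 and 51.2 CPM in LCDM (EPS), and ID2 was at 38.2 ± 2.35 against 134 ± 7.66 CPM. ID1 was not called (34.5 ± 5.96 and 42.0 ± 1.44 CPM), nor was ID3. MSX2, a homeobox gene that BMP and Wnt signals induce, was higher in NHSM-v (log2 fold change 3.71 ± 0.21 SE).

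Genes induced by MEK-ERK signalling, many of which feed back on it, were also higher in NHSM-v, with 21 of 23 members higher and 1 lower (median 2.19). DUSP6, a phosphatase of ERK, was counted at 187, 188 and 193 CPM in NHSM-v and at 15.4, 16.7 and 16.1 CPM in LCDM (EPS), against 523 to 695 CPM in primed cells. The log2 fold change was 3.63 ± 0.10 (SE; adjusted p = 1.34e-21, edgeR's quasi-likelihood test). SPRY4, another feedback inhibitor, was at 184, 177 and 175 CPM against 10.7, 13.2 and 9.69 CPM. The ETS factors ETV4 and ETV5 were at 74.2 ± 3.07 and 85.3 ± 6.77 CPM in NHSM-v and at 12.0 ± 1.58 and 14.3 ± 3.65 CPM in LCDM (EPS). All of these were above the LCDM (EPS) libraries in every NHSM-v library.

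MYC, a growth-promoting factor induced by ERK and by Wnt signals, was at 75.2, 73.8 and 65.7 CPM in NHSM-v and at 9.67, 2.88 and 1.73 CPM in LCDM (EPS), the LCDM (EPS) libraries spreading more widely than the NHSM-v ones. FOS, an immediate early gene, was not called (4.71 ± 0.583 and 5.39 ± 1.59 CPM), and primed cells held 55.1 to 80.7 CPM. EGR1 was higher by 0.89 on the log2 scale. The lower member was EPHA4, an ephrin receptor of neural tissue (63.6 ± 2.02 against 212 ± 10.3 CPM). Receptors of FGF upstream of this pathway gave another picture. FGFR3 was at 9.59, 8.95 and 8.54 CPM in NHSM-v and at 383, 399 and 406 CPM in LCDM (EPS), a log2 fold change of -5.38 ± 0.10 (SE; adjusted p = 8.69e-26, same test). FGFR1 (355 ± 7.99 against 269 ± 5.98 CPM) and FGFR2 (205 ± 3.69 against 283 ± 7.38 CPM) differed by less than 2-fold.

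Of 21 Wnt target genes tested, 18 were higher and 1 was lower in NHSM-v (median 1.37). LEF1, the transcription factor that is itself a Wnt target, was at 73.5, 79.5 and 69.2 CPM in NHSM-v and at 18, 19.7 and 20.1 CPM in LCDM (EPS). Primed cells held at most 0.887 CPM, so both groups lay above them. AXIN2, the negative regulator that serves as a general Wnt readout, was at 270, 257 and 273 CPM against 144, 146 and 149 CPM, with a primed mean of 7.04 CPM. Larger differences were seen for NKD1 (114 ± 9.88 against 14.1 ± 1.97 CPM), TNFRSF19 (482 ± 13.5 against 22.1 ± 0.963 CPM) and NOTUM, a secreted enzyme that inactivates Wnt proteins (3.91 ± 0.178 CPM in NHSM-v, with 1 count in all of LCDM (EPS)). SP8 was the member that went the other way, with no count in NHSM-v and 1.02, 2.50 and 1.73 CPM in LCDM (EPS), at least 5.18-fold lower in NHSM-v.

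Ligands and modulators of the Wnt pathway were split (15 higher and 12 lower of 39). WNT5A, a ligand of the branch that does not act through beta-catenin, was higher in NHSM-v (82.7 ± 4.13 against 22.6 ± 1.29 CPM), as was WLS, the carrier that secretes Wnt proteins (1122 ± 70.4 against 299 ± 15.8 CPM). WNT7B was at 0.677, 0 and 0.440 CPM in NHSM-v and at 32.0, 31.6 and 24.1 CPM in LCDM (EPS), and WNT3 at 9.21 ± 2.31 against 69.4 ± 8.89 CPM. The receptor FZD10 was at 40.7, 35.6 and 46.0 CPM against 266, 270 and 275 CPM, and the secreted antagonist SFRP2 at 3.82 ± 1.81 against 68.3 ± 8.07 CPM. These 4 genes, all expressed in the dorsal or ventricular neural tube in embryos, were lower in NHSM-v without overlap. WNT1, a ligand of the midbrain boundary and the dorsal neural tube, was present in both groups at about 20 CPM (22.0 ± 2.89 and 19.8 ± 3.06) and was not called.

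In the LIF-STAT3 list 9 of 20 members were higher and 3 lower (median 0.68), with STAT3, discussed above, among the higher ones. The share called, 60%, was near the 58.9% of all genes tested. OSMR, the oncostatin receptor chain, was at 133 ± 7.65 against 36.7 ± 1.81 CPM, and IL6ST, the shared signalling chain gp130, at 309 ± 26.4 against 218 ± 5.50 CPM. CNTFR, the ciliary neurotrophic factor receptor of neural cells, was lower in NHSM-v, at 31.8, 35.2 and 28.5 CPM against 119, 146 and 124 CPM. SOCS3, the feedback inhibitor that STAT3 induces, differed by 0.81 on the log2 scale (34.9 ± 4.14 against 21.0 ± 1.22 CPM). The LIF gene itself was at 94.0, 101 and 102 CPM in NHSM-v and at 0.797, 0.236 and 0.487 CPM in LCDM (EPS).

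Among lists with at least 20 genes tested, neural lists had the lowest medians. In the neural progenitor list of 21 tested genes, NHSM-v was lower for 16 and higher for 2 (median -1.63). The summed level of the list was 2629 to 2638 CPM in NHSM-v and 5537 to 5699 CPM in LCDM (EPS). Primed cells held 3142.5 CPM on average, and NES, described below, made up a large part of each sum. POU3F3, a POU factor of the forebrain and other neural progenitors, was counted at 3.50, 1.13 and 1.5 CPM in NHSM-v and at 252, 228 and 255 CPM in LCDM (EPS), a log2 fold change of -6.87 ± 0.17 (SE; adjusted p = 1.84e-22, edgeR's quasi-likelihood test). SOX3 was at 0.789, 0.514 and 0 CPM against 28.8, 29.6 and 30.4 CPM, and SOX1 at 43.0, 41.9 and 39.6 CPM against 195, 190 and 194 CPM. All 3 encode transcription factors of the developing nervous system, and each was higher in every LCDM (EPS) library.

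PAX6, a factor of forebrain and spinal progenitors, was lower in NHSM-v by a smaller step (23.3 ± 3.06 against 66.5 ± 11.2 CPM). NES, which encodes the filament protein nestin, was abundant in both groups, at 1944, 1947 and 1953 CPM and at 3056, 3143 and 3059 CPM, on either side of its primed range of 2218 to 2562 CPM. Of the members that were higher in NHSM-v, EMX2, a factor of the dorsal forebrain, was low, at 1.92, 1.54 and 1.5 CPM with no count in LCDM (EPS), at least 9.68-fold higher. SOX family genes gave 0 higher and 9 lower of 14 (median -1.31), and 0 members were higher at an unadjusted p under 0.05, as called by DESeq2, or under any other alternative run.

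Neuron genes differed more, with 26 of 30 lower and 1 higher in NHSM-v (median -2.37). Their summed level was 2249 to 2462 CPM in NHSM-v, 7498 to 8152 CPM in LCDM (EPS), and 428 CPM on average in primed cells. DCX, which encodes the microtubule protein doublecortin of migrating neurons, was at 83.7, 86.7 and 89.6 CPM in NHSM-v and at 866, 786 and 907 CPM in LCDM (EPS), and the log2 fold change was -3.22 ± 0.07 (SE; adjusted p = 3.90e-24, edgeR's quasi-likelihood test). ELAVL4, a neuronal RNA-binding protein, was at 9.70, 7.20 and 7.57 CPM against 168, 137 and 172 CPM. TUBB3, the tubulin of neurons, was at 303, 315 and 253 CPM against 699, 720 and 695 CPM. Primed cells held at most 4.53 CPM of DCX and 12.9 CPM of TUBB3, so NHSM-v libraries lay above them for both genes and LCDM (EPS) libraries lay higher still.

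Other neuron genes showed that the shift was not uniform. CNTN2, an adhesion molecule of growing axons, was at 349 ± 34.6 against 2008 ± 85.3 CPM, and NHLH2, a factor of young neurons, at 8.16 ± 2.72 against 233 ± 18.9 CPM. Among the neurofilaments NEFM was lower in NHSM-v (208 ± 6.69 against 619 ± 7.96 CPM), and NEFL was not called (209 ± 16.2 and 220 ± 27.9 CPM, log2 fold change 0.00 ± 0.08 SE). GAP43, a growth cone protein, differed by -0.18 on the log2 scale and lost its call in some alternatives. SYT1, a sensor of synaptic vesicle release, was the member that was higher (85.9 ± 6.62 against 42.1 ± 4.16 CPM).

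Axon guidance genes were called in both directions (29 higher and 19 lower of 57). SEMA3C, a secreted semaphorin, was at 934, 922 and 973 CPM in NHSM-v and at 13.9, 18.2 and 15.4 CPM in LCDM (EPS), and its receptor NRP2 at 799, 735 and 744 CPM against 34.5, 34.2 and 32.0 CPM. ROBO3, a receptor of commissural neurons, was at 10.6, 10.3 and 12.8 CPM against 402, 413 and 437 CPM. DCC, the netrin receptor, was at 168, 160 and 162 CPM against 885, 860 and 970 CPM, and EPHA3 at 19.8, 20.1 and 21.7 CPM against 550, 496 and 592 CPM. None of these genes overlapped between the groups, and the median of the list was 0.43.

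Notch genes, which keep a balance between progenitors and neurons, went both ways among ligands and among targets. The ligands DLL1 (20.3, 16.0 and 17.1 CPM against 235, 234 and 250 CPM) and DLL3 (1.62 ± 1.05 against 66.9 ± 3.38 CPM) and the neural target HES5 (0, 0.823 and 0 CPM against 16.3, 21.7 and 19.9 CPM) were lower in NHSM-v. The receptor NOTCH2 (733 ± 20.9 against 174 ± 4.92 CPM), the ligand JAG1 (315 ± 8.14 against 178 ± 8.82 CPM) and the target HES1 (53.9 ± 4.58 against 16.7 ± 0.0628 CPM) were higher. In all, 6 were higher and 10 lower of 23. In the Hedgehog pathway the targets PTCH1 (22.7, 15.6 and 18 CPM against 108, 103 and 103 CPM) and GLI1 (0.310 ± 0.360 against 6.68 ± 1.25 CPM) were lower in NHSM-v. The transducers GLI2 and GLI3, which are not induced by the signal in the same way, were higher by 0.65 and 0.66 on the log2 scale.

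Genes that mark position along the neural tube gave 9 higher and 14 lower of 30 (median -1.41). PAX7, of the dorsal neural tube and neural crest, had no count in NHSM-v and was at 59.4, 75.2 and 69.8 CPM in LCDM (EPS), at least 201-fold lower in NHSM-v. It also had no count in the 6 primed libraries. The related PAX3 was present in both groups and was not called (182 ± 14.1 and 200 ± 13.0 CPM, log2 fold change -0.06 ± 0.08 SE). IRX2 and IRX3, of the posterior neural plate, were lower in NHSM-v (log2 fold changes -3.48 and -3.63), as were OLIG2, of ventral progenitors, at 0.338, 0 and 0.0880 CPM against 10.9, 9.33 and 12.1 CPM, and GBX2 (1.08 ± 0.185 against 15.8 ± 3.72 CPM).

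Other position markers went the other way. OTX2, of the forebrain and midbrain and of the epiblast, was at 146, 136 and 161 CPM in NHSM-v and at 14.1, 20.2 and 15.8 CPM in LCDM (EPS), and primed cells held 95.7 to 151 CPM. EN1, of the midbrain-hindbrain boundary, was at 12.9, 5.25 and 9.42 CPM against 0.0569, 1.08 and 0.325 CPM. Among HOX genes, 10 of 19 were higher and 3 lower in NHSM-v. The lower ones lie at the anterior end of the HOXB cluster, namely HOXB1 (no count against 2.90, 3.35 and 1.68 CPM, at least 7.81-fold lower), HOXB2 (21.0 ± 1.20 against 76.0 ± 4.67 CPM) and HOXB3 (5.17 ± 1.56 against 18.2 ± 2.05 CPM). Posterior members were higher at low levels, such as HOXC6 (8.46, 18.6 and 14.6 CPM against 0.512, 1.93 and 1.30 CPM) and HOXB9 (8.64 ± 2.05 against 1.57 ± 0.686 CPM). HOXA2 was not called (45.3 ± 4.23 and 41.6 ± 7.24 CPM). With at least 10 counts required in every library, 7 HOX genes were left to test and 3 of them were higher, with a median of 0.18 in place of 2.52.

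Neural crest genes were mixed (6 higher and 8 lower of 25, with 56% called against 58.9% of all genes tested). TFAP2A and TFAP2B, factors of the neural plate border, were at 20.6 ± 3.26 and 33.6 ± 2.35 CPM in NHSM-v and at 181 ± 8.53 and 265 ± 1.70 CPM in LCDM (EPS). SNAI2 and ETS1, also counted here, were higher in NHSM-v. CRABP1, the retinoic acid-binding protein of hindbrain and crest, was at 78.0, 81.9 and 82.0 CPM against 742, 843 and 764 CPM, while RARG, a retinoic acid receptor, was higher in NHSM-v at 6.42 ± 1.65 against 0.587 ± 0.598 CPM.

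Genes of cell division were lower in NHSM-v by small amounts. Of 36 mitosis genes, 28 were lower and 1 was higher (median -0.49), and of 39 DNA replication genes, 27 were lower and 1 was higher (median -0.41). MKI67, the marker of cycling cells, was at 754, 723 and 735 CPM in NHSM-v and at 1190, 1209 and 1202 CPM in LCDM (EPS), a log2 fold change of -0.63 ± 0.05 (SE; adjusted p = 7.94e-12, edgeR's quasi-likelihood test). TOP2A, a topoisomerase of dividing cells, was at 450 ± 13.4 against 1071 ± 14.1 CPM, BIRC5, which encodes survivin, at 51.8 ± 0.708 against 125 ± 3.83 CPM, and the replication clamp PCNA at 162 ± 8.65 against 288 ± 3.84 CPM. ANLN, a cytokinesis protein that binds actin, was the mitosis gene that was higher in NHSM-v (245 ± 5.43 against 176 ± 2.72 CPM), and MCM3, of the replicative helicase, the replication gene (232 ± 5.62 against 211 ± 17.4 CPM, with overlapping libraries).

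The regulators of G1 were redistributed between members with related roles (8 higher and 9 lower of 22). CDKN1A, the inhibitor p21, was at 55.9, 54.3 and 59.1 CPM in NHSM-v and at 6.09, 6.55 and 8.28 CPM in LCDM (EPS), with a log2 fold change of 3.09 ± 0.17 (SE; adjusted p = 1.24e-14, edgeR's quasi-likelihood test). CDKN1B, the inhibitor p27, was at 25.7, 22.0 and 30.9 CPM against 104, 98.6 and 92.2 CPM, and CDKN1C, the inhibitor p57, at 13.4, 11.1 and 13.5 CPM against 102, 104 and 109 CPM. One member of this inhibitor family was therefore higher in NHSM-v and the others in LCDM (EPS). The D cyclins CCND1 (526 ± 41.0 against 290 ± 8.94 CPM) and CCND3 (39.0 ± 3.26 against 17.0 ± 3.87 CPM) and the kinase CDK6 (50.2 ± 4.06 against 19.8 ± 0.592 CPM) were higher in NHSM-v, and CCNE1, the cyclin of the step into S phase, was lower (18.7 ± 3.10 against 34.8 ± 4.18 CPM). CDK4 was not called (180 ± 16.9 and 189 ± 7.99 CPM), and CCND2 differed by 0.19 on the log2 scale with overlapping libraries.

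Targets of p53, CDKN1A among them, gave 8 higher and 6 lower of 24, and 7 and 0 among changes of at least 2-fold. The share called, 58.3%, was near the 58.9% of all genes tested. TNFRSF10B, a death receptor, was at 110, 135 and 134 CPM in NHSM-v and at 9.79, 7.97 and 8.66 CPM in LCDM (EPS), whereas MDM2, the feedback inhibitor of p53, was lower (45.7 ± 3.04 against 66.3 ± 9.83 CPM). BCL2, a gene of survival, was low in both groups and lower in NHSM-v (1.01, 3.29 and 3.87 CPM against 8.08, 6.22 and 11.3 CPM).

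Metabolic lists moved by less than the mesenchymal, neuron and neural progenitor lists. Genes of glycolysis and the hypoxia response gave 21 higher and 5 lower of 35 (median 0.48). SLC2A1, the main glucose transporter, was at 725, 694 and 748 CPM in NHSM-v and at 200, 220 and 187 CPM in LCDM (EPS), and SLC2A3, a high-affinity transporter, was at 83.3 ± 5.63 against 11.6 ± 3.79 CPM. LDHA, which makes lactate, was lower in NHSM-v (144 ± 10.2 against 286 ± 28.9 CPM), so transport and the last step of the pathway went opposite ways. Ribosomal protein genes gave 36 lower and 4 higher of 57 (median -0.32), and oxidative phosphorylation genes 15 lower and 5 higher of 47 (median -0.19). Of the latter, 42.6% were called, below the 58.9% of all genes tested. Genes of cholesterol and fatty acid synthesis gave 11 higher and 12 lower of 32, but 8 and 16 after upper-quartile normalization and 5 and 11 when all 8 groups were fitted together. Genes of the amino acid stress response gave 11 higher and 10 lower of 32, and 10 and 2 among changes of at least 2-fold. The amino acid transporter SLC7A5 was higher in NHSM-v at 753 ± 9.19 against 178 ± 3.08 CPM.

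Of the 19 core pluripotency genes, 13 had enough counts to be tested, 10 were lower and 1 was higher in NHSM-v (median -1.85), and all are counted here only against the low levels described above. Their summed level was 228 to 237 CPM in NHSM-v and 582 to 619 CPM in LCDM (EPS), against 9092 CPM in primed cells, and in both groups SOX2 made up a large part of it. DNMT3B, a DNA methyltransferase of the epiblast, was at 26.0 ± 3.77 against 98.9 ± 12.0 CPM, with 2936 to 3412 CPM in primed cells. LIN28B was at 26.8 ± 2.75 against 97.8 ± 10.5 CPM, SALL4 at 12.0 ± 3.70 against 23.1 ± 6.14 CPM, TRIM71 at 2.97 ± 1.09 against 19.6 ± 1.94 CPM, and LIN28A at 1.32 ± 0.553 against 7.09 ± 1.18 CPM. These RNA-binding and zinc-finger proteins are also found in early neural tissue. L1TD1 was the gene that was higher in NHSM-v, at 55.6, 60.9 and 61.4 CPM against 9.84, 5.33 and 1.84 CPM, and primed cells held 1128 to 1377 CPM.

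Apart from POU5F1, at 5.97 CPM in LCDM (EPS) replicate 1, the other core genes were below 5 CPM in every library of both groups. EPCAM was at 0.225 ± 0.208 against 3.37 ± 0.401 CPM, ESRP1 had 1 count in NHSM-v and 1.10 ± 0.315 CPM in LCDM (EPS), and ZFP42, with no count in NHSM-v, was at 3.76, 4.01 and 1.73 CPM in LCDM (EPS), at least 9.36-fold lower in NHSM-v. PRDM14 had no count in NHSM-v and 2.33, 0.471 and 0.0541 CPM in LCDM (EPS). GDF3 (no count against 0.653 ± 0.755 CPM), TDGF1 (0.264 ± 0.318 against 0.991 ± 1.05 CPM) and UTF1 (2 counts against none) were not tested, and DPPA4 (0.656 ± 0.729 against 1.22 ± 0.624 CPM) and FOXD3 (0.678 ± 0.663 against 0.535 ± 0.468 CPM) were not called. LCDM (EPS) libraries thus held a small remainder of several of these transcripts, and replicate 1 held the most POU5F1. Without that library POU5F1 was no longer called (adjusted p = 0.0774, edgeR's quasi-likelihood test), and over the other alternatives that could be computed its adjusted p lay between 0.000198 and 0.0201.

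Genes associated with the naive state gave 5 higher and 1 lower of 8 tested. TFAP2C, one of the markers the study stained, was at 78.6, 75.6 and 70.4 CPM in NHSM-v and at 8.08, 7.45 and 10.4 CPM in LCDM (EPS), and KLF5 was at 23.8, 37.6 and 33.9 CPM against 3.70, 2.26 and 1.79 CPM. KLF4, also stained, was low in both (3.62 ± 1.75 against 0.575 ± 0.254 CPM), and TFE3 differed by 0.50 on the log2 scale. By immunostaining, the study found none of TFAP2C, KLF4 and TFE3 in NHSM-v cells. In LCDM (EPS) cells it found KLF4 and TFE3, but not TFAP2C. The RNA levels given here did not follow that pattern, and RNA and protein are unlike measures. ESRRB, a factor of mouse naive cells, had no count in NHSM-v and 5.01, 6.32 and 7.47 CPM in LCDM (EPS), at least 18.5-fold lower. KLF17 and DPPA5, which mark human naive cells, had no count in any of the 6 libraries, and DPPA3 had 6 counts in all, each in NHSM-v replicate 1.

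Of the other genes that the study stained or blotted, GATA6 (1.38 ± 0.719 and 2.60 ± 0.604 CPM), SOX17 (no count and 0.516 ± 0.519 CPM) and T, the brachyury gene (no count and 0.370 ± 0.105 CPM), which mark endoderm and mesoderm, were near the floor. CCNA2 (109 ± 12.0 against 170 ± 3.09 CPM) and CDK2 (116 ± 3.86 against 156 ± 8.22 CPM), of S phase, were lower in NHSM-v. Of the 17 stained or blotted genes that were tested, 7 were higher and 8 lower.

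Among markers of other lineages, endothelial and blood genes gave 5 higher and 1 lower of 8 tested (median 3.22). Under the alternatives this median lay between 0.361 and 4.49. Their summed level was 356.1 to 391.8 CPM in NHSM-v, a large part of it RUNX1, and 29.2 to 38.8 CPM in LCDM (EPS). Mesoderm genes gave 6 higher and 0 lower of 14, also with DESeq2, while 2 were lower at an unadjusted p under 0.05 and 2 were called lower after upper-quartile normalization. Trophoblast and amnion genes gave 4 higher and 1 lower of 8, endoderm genes 1 and 3 of 9, and epithelial genes 5 and 2 of 12, the last with summed levels of 497 to 504 against 72.7 to 93.1 CPM. The shares called were 42.9% for mesoderm, 44.4% for endoderm, 58.3% for epithelial and 62.5% for trophoblast and amnion genes. Over all genes tested the share was 58.9%. RUNX1, a factor of blood and of many mesenchymal cells, was at 252, 249 and 294 CPM in NHSM-v and at 1.93, 2.88 and 2.71 CPM in LCDM (EPS), and KDR, a VEGF receptor, at 62.9, 63.3 and 55.2 CPM against 2.50, 3.54 and 2.76 CPM. PECAM1, an endothelial adhesion molecule, went the other way, at 0, 0.309 and 0.176 CPM against 27.1, 21.8 and 18.1 CPM, and CDH5, which defines endothelium, was under 1 CPM in all 6 libraries (0.452 ± 0.408 and 0.0948 ± 0.164 CPM). Of epithelial genes, CLDN6 was at 366, 355 and 350 CPM against 5.92, 7.31 and 7.42 CPM, a large part of the epithelial sum in NHSM-v. KRT8 was at 56.0 ± 2.69 against 8.33 ± 3.94 CPM, while CDH1 and EPCAM were near 0 as given above. Imprinted genes gave 6 higher and 14 lower of 28. NNAT, a paternally expressed gene of developing brain, was at 4.29, 9.67 and 5.46 CPM in NHSM-v and at 456, 453 and 462 CPM in LCDM (EPS), MEST was higher in NHSM-v (1818 ± 76.0 against 876 ± 27 CPM), and PEG10 differed by 0.17 on the log2 scale.

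The remaining genes with the largest changes belong to varied families. In addition to ESR1, LIF, COL8A1, RUNX1 and ACTA2, the 10 largest rises among called genes with at least 20 CPM in the higher group included CCL2, a chemokine that attracts monocytes (103, 108 and 121 CPM against 0.683, 0.189 and 0.271 CPM), ALPK2, a kinase (341 ± 25.9 against 1.70 ± 1.48 CPM), EDN1, which encodes endothelin (49.1 ± 10.1 against 0.362 ± 0.406 CPM), and STEAP3, an iron reductase (25.7 ± 6.63 against 0.209 ± 0.361 CPM). IGFBP5, a binding protein of insulin-like growth factors, was at 4713, 4567 and 4865 CPM against 79.3, 95.0 and 77.7 CPM. In the other direction, in addition to PAX7, PECAM1, POU3F3, WNT7B, SOX3 and NNAT, they were C1H1orf61 (0.205 ± 0.356 against 89.2 ± 1.80 CPM), GSX1, a homeobox gene of neural progenitors (0.132 ± 0.159 against 20.8 ± 0.926 CPM), RNF144B, a ubiquitin ligase (0.372 ± 0.343 against 42.0 ± 1.77 CPM), and SYT13, a synaptotagmin (1.06 ± 0.981 against 60.3 ± 3.24 CPM). Where both groups held at least 20 CPM, the genes furthest below LCDM (EPS) in NHSM-v were EPHA3, ADGRV1, DCX, CRABP1 and POU3F2. ADGRV1, an adhesion receptor, was at 30.9 ± 1.57 against 371 ± 36 CPM. POU3F2, a partner of POU3F3, was at 34.6 ± 5.02 against 332 ± 29.8 CPM.

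Both groups were also set against primed cells. In separate fits that share the 6 primed libraries, 7775 of 13268 genes (58.6%) were called for NHSM-v and 7782 of 13625 (57.1%) for LCDM (EPS). Among the 7766 genes that differed between the groups, 2652 (34.1%) were called in the same direction against primed in both, a count that the shared primed libraries can raise. The groups lay on opposite sides of primed for 418 genes (5.38%) that were higher than primed in NHSM-v and lower in LCDM (EPS), and for 217 (2.79%) that were the reverse. With the primed libraries of letter J alone these counts were 384 and 181, and with those of letter K alone 463 and 258. TAGLN and TNC were among the first kind, with log2 fold changes against primed of 1.5 and 3.69 in NHSM-v and of -3.85 and -2.23 in LCDM (EPS). FGFR3 and SOX3 were among the second, with -1.44 and -3.27 in NHSM-v and 4.03 and 2.81 in LCDM (EPS).

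A pair of other protocols was used to see whether the same genes differ elsewhere in the series. The nearest group to NHSM-v was 4i/L/b (root mean square log2 distance of 1.03 over 14752 genes) and the nearest to LCDM (EPS) was t2iLGöY (1.03), while NHSM-v and LCDM (EPS) lay 1.37 apart. Likeness of this contrast to that of NHSM-v and LCDM (EPS) is therefore partly due to the choice of the pair, and it is given as a description. The contrast shares no library with the main one, and 5912 of its 13399 genes (44.1%) were called. Of the 1901 tested genes at least 2-fold higher in NHSM-v, 1022 (53.8%) were called higher in 4i/L/b and 199 (10.5%) lower, against 22.1% higher over all genes. Of the 1407 at least 2-fold lower, 700 (49.8%) were called lower and 136 (9.67%) higher, against 22.0% lower over all genes. Across 12914 genes, which are not independent, the correlation of the log2 fold changes was 0.42.

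The lists that separated NHSM-v from LCDM (EPS) most mostly kept their direction between 4i/L/b and t2iLGöY. Mesenchymal genes gave 26 higher and 2 lower of 34 in 4i/L/b (median 1.85), and collagens, which share members with them, 22 and 7 of 37. Integrins and laminins gave 17 and 1 of 28, and MEK-ERK feedback genes 16 and 1 of 23. Neuron genes gave 1 higher and 29 lower of 30 (median -2.76). Other lists did not follow. Core pluripotency genes gave 9 higher and 4 lower of 15 in 4i/L/b (median 1.89), DNA replication genes 14 and 3 of 39, and ribosomal protein genes 14 higher and 7 lower, whereas all 3 lists had mostly lower members in NHSM-v. POU5F1 was near 0 in both of these groups (means of 0.900 CPM in 4i/L/b and 1.17 CPM in t2iLGöY), and some called core genes were low too. DPPA4, for example, had means of 4.94 and 0.376 CPM. Single genes were divided as well. FN1 kept its direction and was higher in 4i/L/b (log2 fold change 3.44). OTX2, higher in NHSM-v, was lower in 4i/L/b (-3.43), as were BMP6 (-3.40) and HOXC6 (-1.92). TGFBR2, SNAI2 and KDR, each far higher in NHSM-v, were not called between 4i/L/b and t2iLGöY.

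**Figure D4:**
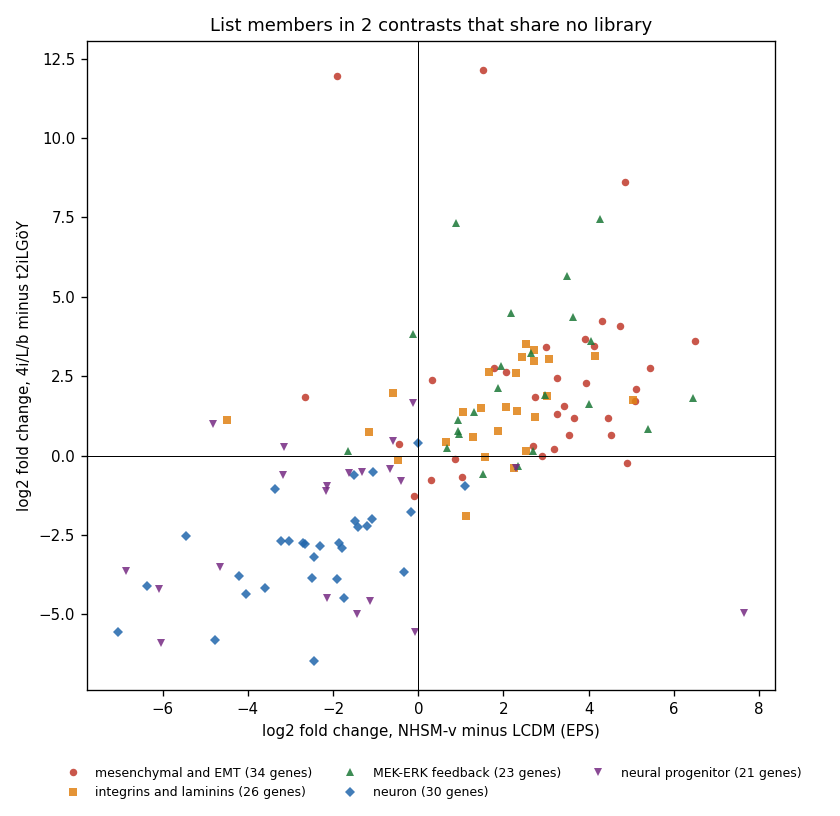
log2 fold changes of the members of 5 gene lists in NHSM-v minus LCDM (EPS) (horizontal axis) and in 4i/L/b minus t2iLGöY (vertical axis), 1 point per gene. Most mesenchymal, integrin and MEK-ERK points lie to the upper right, and most neuron points, with a median of -2.37 on the horizontal and of -2.76 on the vertical axis, to the lower left.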

How the data were processed

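Per the labels, mRNA libraries were directional and single reads were sequenced. The authors deposited raw read counts per gene symbol, and the submitters' processing notes name bcl2fastq, cutadapt, HISAT2 and HTSeq without versions. Neither build nor annotation is given in the sources used here. Counts were joined by symbol for the 27 libraries. Genes were filtered with filterByExpr and tested with edgeR 4.0.16 (quasi-likelihood, TMM, R 4.3.3) on the 6 libraries compared, and p-values were adjusted by Benjamini-Hochberg over all genes tested. A gene was called at an adjusted p under 0.05. Standard errors were obtained from the fold change and the F statistic. Contrasts with primed cells and of 4i/L/b with t2iLGöY were fitted separately. The alternatives were DESeq2 1.42.0, another normalization, other filters, a fold threshold, a fit of all 8 groups, a replicate block, and leaving out each library. Total counts per library, 9504626 to 20046414 here, set the precision.

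The 6 libraries were set by their labels. The comparison and the 45 gene lists (1192 of 1230 symbols were in the table) were chosen with earlier results of these data known. Genes named in the text come from those with the largest called changes (10 per direction with at least 20 CPM in the higher group, 5 with at least 20 CPM in both), from the called members of each list with the largest changes and at least 5 CPM (at most 6 per direction), and from all core pluripotency genes and all genes stained or blotted in the study. Others are named to describe a list. The fit was tested on simulated data for this comparison with 13023 genes. There, 89% of genes changed by a log2 size of 2 and 77% of those changed by a log2 size of 1 were called, and 4.6% of calls were unchanged genes. Only 100 genes of each size were changed, up and down in equal number, each with an expected count of at least 10. In the data 58.9% of genes were called, so these rates need not hold there. Replicate numbers did not pair the libraries. Lists were described by counts and medians, with no set test. Some genes that meet these rules are not reported here. No sequences are shown. Reads of overlapping or near-identical genes may be split by the counting.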

Additional observations from a re-analysis of the deposited data

Results flagged for a closer look

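Among the genes named in the report, some were called in opposite directions against primed cells in the 2 protocols, and the difference itself was tested by the direct comparison of NHSM-v with LCDM (EPS). All of them passed it with edgeR's quasi-likelihood test, and the values in parentheses are its log2 fold changes. Genes were named largely for being called in that comparison, so the pass is no separate support. The genes higher than primed in NHSM-v and lower than primed in LCDM (EPS) with the largest differences were LIF (7.71), ALPK2 (7.65), EDN1 (7.05), ACTA2 (6.50), TNC (6.02), CDH6 (5.57), TAGLN (5.44), INHBA (5.19), THY1 (5.10), SNAI2 (4.91), NRP2 (4.57), PRRX1 (4.57) and TNFRSF19 (4.52). The others of this kind were TGFBR2 (4.5), LAMB1 (4.15), FN1 (4.12), TNFRSF10B (3.92), ETS1 (3.82), KLF5 (3.70), HOXC6 (3.53), DDX3Y (3.51), COL1A1 (3.42), TFAP2C (3.19), CDH11 (3.18), ITGA5 (3.06), ETV5 (2.65), ITGB1 (2.32), HES1 (1.76) and WWTR1 (1.15). The genes lower than primed in NHSM-v and higher than primed in LCDM (EPS) were C1H1orf61 (-8.46), PECAM1 (-6.92), RNF144B (-6.73), SOX3 (-6.09), NNAT (-6.06), SYT13 (-5.70), FGFR3 (-5.38), LAMC3 (-4.48), GBX2 (-3.79), ID4 (-3.72), ADGRV1 (-3.51), IRX2 (-3.48), PTCH1 (-2.41), ACVR2B (-1.51) and NES (-0.59). The steps against primed were uneven. For ACTA2 the log2 fold changes against primed were 5.01 in NHSM-v and -1.40 in LCDM (EPS), and for NES -0.34 and 0.35. ESR1 reads differ between the groups and among the primed libraries, and their part in these values was not tested.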

How the results depend on the processing

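The count of called genes was 7766, and it lay between 7045 and 7955 under the alternatives that kept the threshold and all libraries (3200 to 3938 higher, 3628 to 4509 lower). Leaving out each library in turn gave 6939 to 7580 called genes, 3539 to 3764 higher and 3400 to 3820 lower. Requiring a log2 fold change of at least 1 gave 3422 genes, 1936 higher and 1486 lower, and 2503 between 4i/L/b and t2iLGöY. Upper-quartile normalization shifted the median log2 fold change by -0.097 and the share of higher genes among those called from 49.8% to 43.3%. With the replicate block 7606 genes were called (3767 higher, 3839 lower), but samples of the same number did not deviate together (correlations of -0.025 to 0.0039), so they share only a number. With primed libraries of letter J or K alone, an alternative chosen after seeing the data, 7316 and 8173 genes were called for NHSM-v and 7474 and 8326 for LCDM (EPS).

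No named gene changed direction. Of the values of named genes under the alternatives, 2395 kept their side of the threshold, 51 lost the call and 7 gained it. Apart from the fold threshold, calls were lost in some alternatives for CCND2, MCM3, GAP43, COL9A2, PEG10, BCL2 and POU5F1, and NODAL and ID3 gained one, and the cause was not tested. Levels near the floor are limited by depth, more so in NHSM-v.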
